A study of Mus musculus with 6 samples.

Results

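The Rab genes encode small GTPases of the Ras superfamily. The set was taken by name, as every gene whose platform symbol is Rab followed by a number and at most 2 letters. The set ran from Rab1a to Rab43, and no measured value entered this rule. The family itself was chosen with earlier results of these data known. It held 58 of the 18193 genes that at least 1 probe set named alone, and where several probe sets named a gene, the one brightest on average (mean log2 signal over the arrays) stood for it. Symbols of Rab interactors (Rab3ip, Rab5if), of opposite-strand transcripts (Rab10os, Rab26os) and Rab44 were left out.

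The arrays came from primary mouse embryonic fibroblasts (MEFs) that carried a floxed CNOT3 allele in both cultures. Control MEFs were infected with a mock retrovirus, and the labels give their genotype as wild type. CNOT3-depleted MEFs received a retrovirus that carries Cre, the recombinase that cuts out the floxed part, and both cultures were selected in puromycin for 2 days. RNA was taken without treatment (0 h) and after 6 and 12 h of actinomycin D (Act. D), an inhibitor of transcription, with 1 Affymetrix Mouse Genome array for each of the 6 conditions. As none was repeated, no difference below has a replicate check and no test was possible. The number of arrays therefore limits the precision of every value.

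Rab proteins cycle between a GDP-bound form held in the cytosol by GDP dissociation inhibitor (GDI) and a GTP-bound form anchored to membranes by prenyl groups. Guanine nucleotide exchange factors (GEFs) switch them on, GTPase-activating proteins (GAPs) switch them off, and the active form recruits effectors that move, tether and fuse vesicles. Each Rab marks a particular membrane, so that the family together covers secretion, endocytosis, recycling and the path to lysosomes. CNOT3 is a non-catalytic subunit of CCR4-NOT, the complex that shortens the poly(A) tails of mRNAs, and the comparison asks how fast each Rab mRNA was lost when the subunit was depleted.

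Cnot3 itself was used to check the labels, and its probe sets disagreed at 0 h. At its brighter probe set the signal was 436, 193 and 198 at 0, 6 and 12 h without depletion, and 239.6, 128 and 82.9 in CNOT3-depleted MEFs. At its other probe set the 0 h signals were 204 and 227, so that the lower 0 h level rested on 1 of its probe sets. All 16 fibroblast markers were at or above the array median on every array. Trimmed mean signals ran from 494 to 497, so the arrays had been brought to one mean, and the percentage of signal left is relative to that mean and can exceed 100%. Signals under the 25th percentile of their array, which lay between 13.6 and 19.8, are called near background, and values resting on them are given as bounds.

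Rab mRNAs were broadly present in these fibroblasts. Of the 58 genes, 49 had a mean log2 signal at 0 h at or above the median of all probe sets, and 48 were not near background on any array. The 5 with the highest mean log2 signals were Rab1a, Rab11a, Rab2a, Rab7 and Rab18, which act in transport from the endoplasmic reticulum (ER), at recycling endosomes, in the early secretory pathway, on late endosomes and on lipid droplets. The 9 genes under the median were Rab3c, Rab9b, Rab17, Rab19, Rab25, Rab26, Rab27a, Rab37 and Rab39. Rab17 and Rab25 are known from polarized epithelia and Rab3c, Rab26, Rab27a and Rab37 from regulated secretion.

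Before Act. D, more Rab genes stood above control than below it in CNOT3-depleted MEFs, under each scaling tried. At 0 h, 13 of 58 Rab genes (22.4%) were more than 1.5-fold higher, against 19.5% of all genes, and 5 (8.62%) were more than 1.5-fold lower, against 15.7%. Among genes at or above the median signal, 10 of 49 Rab genes (20.4%) were higher, against 12.4% of genes, and 1 of 49 (2.04%) was lower, against 6.77%. The other 40 of 58 lay within 1.5-fold. The median log2 fold was 0.23 over the Rab genes and 0.06 over all genes. Of the Rab genes past 1.5-fold, 72.2% were higher, against 55.4% over all genes. The share was 84.2% both with arrays divided by their median (62.6% over all genes) and by ribosomal protein signals (62.8%), and 82.4% after quantile normalization (58.7%). At a fold threshold of 2, only 2 of 58 Rab genes were higher, against 10.4% of all genes. In a culture, fewer cells of a type and less RNA per cell cannot be told apart.

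All 3 GTPases listed under lysosome-related organelles were among the higher genes, in a list drawn up with earlier results of these data known. Rab32, which directs cargo to melanosomes and other lysosome-related organelles, gave a 0 h signal of 819 in control and 1589 in CNOT3-depleted MEFs, a 1.94-fold difference. Its close relative Rab38, with the same known role, gave 177 and 317 (1.80-fold). Rab29, which acts at the Golgi and on stressed lysosomes, gave 526 and 822 (1.56-fold). The summed signal of 7 melanocyte markers was 509 at 0 h in control against 467 in depleted MEFs, with Mlana higher, Tyr, Tyrp1 and Pmel lower and only Mitf at or above the median. After Act. D the sums were 303 and 294 in control against 409 and 406, and their part in the courses of these Rab genes was not tested.

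Among the secretory Rabs, Rab3b and Rab3d, which sit on secretory vesicles, were higher. Rab3b gave 214, 400.1 and 443 at 0, 6 and 12 h in control and 397, 399 and 483 in depleted MEFs, so that the 1.85-fold gap of 0 h was no longer present at 6 h. Rab3d gave 122, 176 and 135 against 223, 244 and 244, a 1.82-fold difference at 0 h with the CNOT3-depleted signal above control at all 3 times. A dimmer Rab3d probe set at or above the median also stood higher at 0 h, at 157 against 98.6 in control. At 6 h it stood lower, at 73.9 against 94.8.

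The remaining genes higher at 0 h with both signals at or above the median were Rab42, Rab40b, Rab36 and Rab39b. Rab42 had the largest fold of these at 2.13, with 79.2, 24.7 and 38.1 in control and 169, 128 and 80.5 in CNOT3-depleted MEFs. Rab40b, whose protein serves as the substrate adaptor of a ubiquitin ligase, gave 119.6, 119 and 145 against 209, 193 and 220.2. For both genes CNOT3-depleted MEFs stood above control at all 3 times. Rab36, a Golgi GTPase that binds effectors shared with Rab34, gave 118, 123 and 267 in control and 184, 128 and 133 in CNOT3-depleted MEFs. By 12 h the order of the cultures had turned for Rab36, and its second probe set gave 104 and 93.0 at 0 h.

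Rab30, a Golgi GTPase, was the 1 gene lower with both 0 h signals at or above the median. Its brightest probe set gave 223, 223 and 179 in control and 127, 111 and 99.5 in CNOT3-depleted MEFs, 1.75-fold lower at 0 h. The cultures stayed in that order at all 3 times. At a second probe set, treated below, Rab30 was not lower at 0 h.

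**Figure D1:**
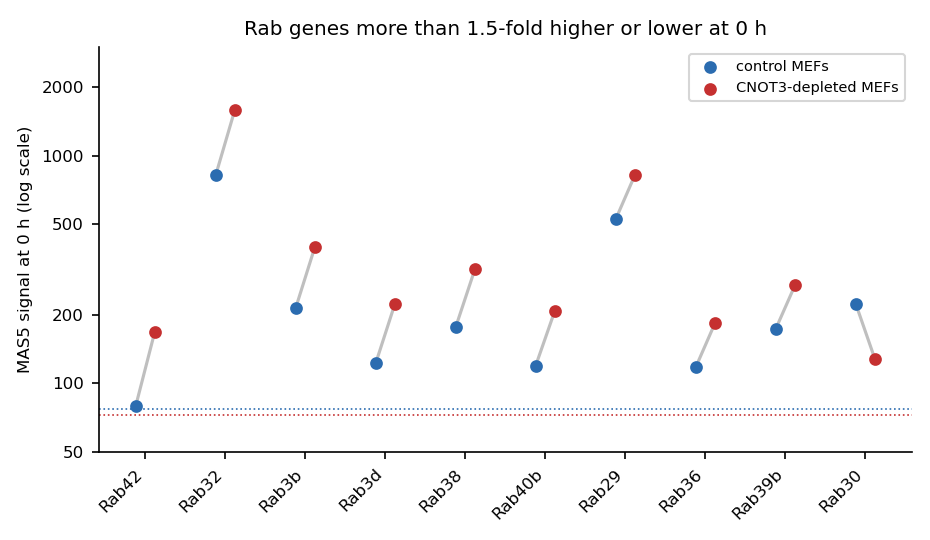
MAS5 signal at 0 h (log scale) of the Rab genes that differed by more than 1.5-fold with both signals at or above the median of their array, 1 array per point, with blue for control and red for CNOT3-depleted MEFs; the dotted lines are the medians of the 2 arrays. All but Rab30 stand higher in CNOT3-depleted MEFs, from Rab42 at 79.2 against 169 to Rab32 at 819 against 1589.

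The other calls rested on low signals. Rab27a, which docks secretory granules, was near background in control MEFs (19.3 against 57.7), a difference of at least 2.91-fold, but a second probe set gave 43.3 against 46.3 and the call was lost with the median over probe sets. Rab39 was near background too, and its bound of 1.29-fold does not reach 1.5. Rab33a and Rab37 gave 57.9 against 96.1 and 22.2 against 43.3. Among the lower genes, Rab9b gave 53.5 in control and a near-background 10.8 in CNOT3-depleted MEFs, at least 2.84-fold lower. Rab17 and Rab3c gave 42.9 against 27.0 and 42.4 against 26.9, and each kept its call in 1 of 7 alternatives, losing it under all 3 other scalings. Rab25 and Rab26 were near background at 0 h in both cultures and have no fold. With signals under the 25th percentile set to it, 12 Rab genes were higher and 4 lower, against 13.7% and 9.94% of all genes.

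Summed markers of some other cell types were also higher at 0 h, and the shares to read the counts against are those of all genes, 19.5% higher and 15.7% lower. The summed signal of 10 epithelial markers was 1339.5 in control and 2518 in CNOT3-depleted MEFs, 6 of the 10 passed 1.5-fold upward and 1, Cldn4, downward, and over the 3 times the sum ran from 1073 to 1339.5 and from 2518 to 2912. Krt18 gave 419 against 862, whereas the defining markers Cdh1 (8.35 against 28.5) and Esrp1 (2.2 against 7.8) were low. The sum of 11 leukocyte markers was 5003 against 7169.7 at 0 h, with 3 of 11 higher and 2 lower, and ranged from 5003 to 12254 in control and from 7169.7 to 11477 in CNOT3-depleted MEFs. Itgam, Cd3e and Cd79a were near background at 0 h in both cultures. The sum of 8 neural and endocrine markers was 1951 against 3027, with 3 of 8 higher and 1 lower. That of 6 endothelial markers was 246 against 247, with 1 higher and 2 lower. Their part in the Rab differences at 0 h was not tested.

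After Act. D, the middle of the Rab genes spread more widely in percentage left in control than in CNOT3-depleted MEFs. Among the 49 Rab genes at or above the median, the median left in control MEFs was 96.2% of the 0 h signal at 6 h and 67.5% at 12 h. In CNOT3-depleted MEFs it was 99.5% and 100.7%. The 25th and 75th percentiles at 12 h were 37.2% and 121.6% in control and 78.2% and 115.2% in CNOT3-depleted MEFs. The 12 h values ran from 6.38% to 308% in control and from 2.36%, a near-background reading of Rab20, to 139% in CNOT3-depleted MEFs. All genes at or above the median had 87.0% and 72.8% left in control and 97.6% and 95.1% in CNOT3-depleted MEFs, so the Rab medians were near those of other genes. At 12 h in control, 38% of these genes had at most 50% left and 21.7% stood at 150% or more. In CNOT3-depleted MEFs 16.8% and 3.62% did, so a wider control spread was not particular to the Rab genes.

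In control MEFs, 17 of 49 Rab genes (34.7%) had at most 50% left at 12 h, against 38% of genes, and 11 (22.4%) had at most 25% left, against 19.9%. In CNOT3-depleted MEFs 6 of 49 (12.2%) had at most 50% left, against 16.8%, and 1 (2.04%), Rab20, had at most 25% left, against 6.68%. The 6 were Rab20, Rab33b, Rab3a, Rab40c, Rab42 and Rab7b. In the other direction, 9 of 49 in control MEFs (18.4%) stood at 150% or more, against 21.7% of genes, namely Rab2b, Rab3b, Rab4b, Rab5c, Rab13, Rab15, Rab28, Rab31 and Rab36. None of 49 did in CNOT3-depleted MEFs, against 3.62%. With arrays divided by the signals of 46 ribosomal protein genes, the control count of 9 became 1 and the 12 h medians became 40.4% and 90.5%. After quantile normalization the count was 13 with medians of 87.3% and 101.2%, and with arrays divided by their median it was 13 with 84.2% and 144%. The control median at 12 h was the lower of the pair under each scaling.

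**Figure D2:**
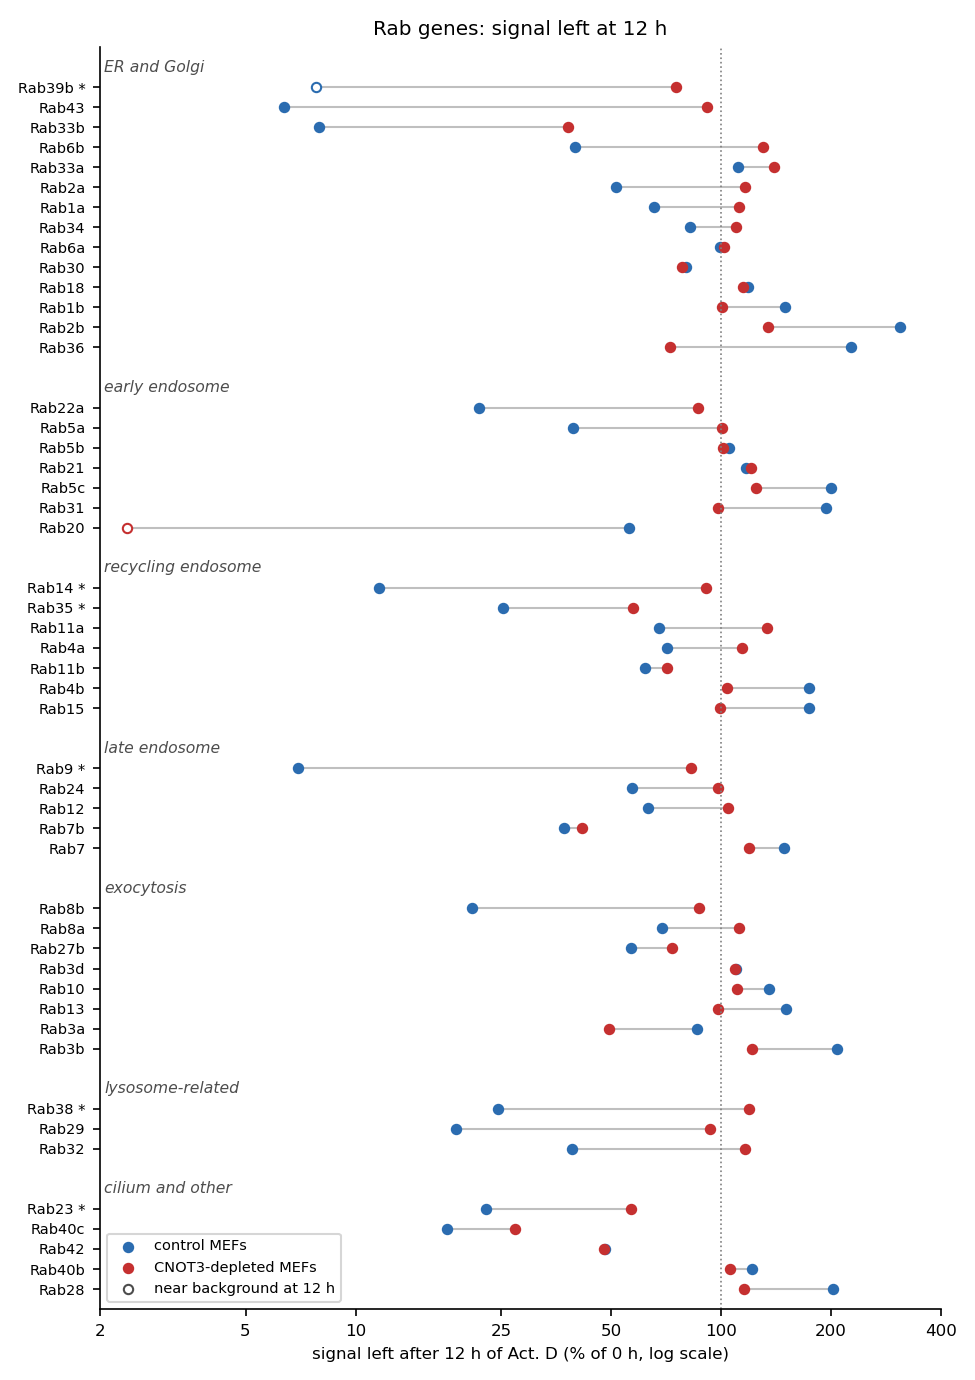
Signal left at 12 h of Act. D, in % of the 0 h signal on a log scale, for the 49 Rab genes at or above the median, grouped by the compartment in which each GTPase acts, with blue for control and red for CNOT3-depleted MEFs. Open points mark a 12 h signal near background, asterisks mark the 6 genes that met the rule for stabilized genes, and blue points reach from 6.38% to 308% and red points from 2.36% to 139%.

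Stabilization compares the fractions left, as log2 of CNOT3-depleted over control, averaged over 6 and 12 h. The 0 h arrays enter both this measure and the fold at 0 h, so these measures share their data. A gene was counted as stabilized when its 0 h signal was at or above the median, its CNOT3-depleted signal at 6 h lay between 0.5 and 2 times that of 0 h, and it kept, at 6 h and again at 12 h, 2 or more times the fraction that control kept. By this rule 6 of 58 Rab genes (10.3%) were stabilized, against 6.44% of all genes, and 6 of 49 (12.2%) against 10.6% of genes at or above the median. They were Rab9, Rab14, Rab23, Rab35, Rab38 and Rab39b. With the cultures exchanged, 0 Rab genes met the rule, against 0.291% of all genes and 0.479% of those at or above the median. The median log2 stabilization of the Rab genes was 0.18 and that of all genes 0.02; dividing by ribosomal protein signals raised both, and each Rab gene, by 0.50 and left the gap between the medians at 0.16. Among those at or above the median signal the medians were closer, at 0.19 for Rab genes and 0.13 for all.

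Among the 6 stabilized genes, control MEFs had 8.48% to 28.9% left at 6 h and 6.95% to 25.3% at 12 h. CNOT3-depleted MEFs had 65.7% to 98.5% left at 6 h and 56.9% to 119% at 12 h. The ranges of the cultures did not overlap, a gap that the rule itself sets in large part.

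Rab9, which returns mannose 6-phosphate receptors from late endosomes to the trans-Golgi network, had the largest stabilization of the 49 at 3.03. Control MEFs gave 2399, 351 and 167 over the 3 times, and CNOT3-depleted MEFs gave 3486, 2859 and 2892. Control was down to 6.95% at 12 h and CNOT3-depleted MEFs held 83.0%. The gene has 1 probe set. Its relative Rab9b was near background on 4 of 6 arrays, with 53.5, 7.80 and 5.97 in control and 10.8, 6.44 and 41.6 in CNOT3-depleted MEFs, so no course can be read for it.

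Rab14, which works between the Golgi, early endosomes and the recycling route, gave 8033, 2322 and 929.6 in control and 9269.7, 8099.6 and 8457 in CNOT3-depleted MEFs. Control signal was thus at 28.9% and then 11.6%, against 87.4% and 91.2%, a stabilization of 2.29. This reading comes from a probe set of the _s_at type, which can detect more than 1 transcript. A second probe set met the rule as well, with 2685, 806 and 343 against 2782, 2725 and 2449. Of the other 5, which did not, 3 had positive stabilization from 0.58 to 1.80, and a pair of dim ones had −0.91 and −1.24. The call was lost when the median over probe sets was used.

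Rab35, a GTPase of fast recycling from endosomes to the plasma membrane, gave 707, 59.96 and 179 in control and 941, 627 and 539 in CNOT3-depleted MEFs. Its control signal was higher at 12 h than at 6 h, so the ratio of the fractions left was 7.87 at 6 h and 2.27 at 12 h. The 12 h ratio lay close to the limit of 2. Rab35 has 1 probe set, and the call was lost after quantile normalization.

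Rab23, which restrains Hedgehog signalling and acts at the primary cilium, gave 1582, 338 and 359.6 in control and 1753, 1152 and 998 in CNOT3-depleted MEFs. All 3 of its probe sets met the rule, with stabilizations of 1.47, 1.92 and 2.95. CNOT3-depleted MEFs themselves had 56.9% left at 12 h at the brightest probe set, the lowest of the 6 stabilized genes. This call too was lost after quantile normalization.

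Rab38 gave 177, 44.8 and 43.4 in control and 317, 307 and 378 in CNOT3-depleted MEFs. It was stabilized (2.10) and higher at 0 h, and its second probe set was both as well, with 150.2, 41.1 and 59.9 against 303, 299 and 297. Rab39b, a Golgi and autophagy-related GTPase mutated in a form of X-linked intellectual disability, gave 173, 48.6 and a near-background 13.6 in control and 269, 265 and 203 in CNOT3-depleted MEFs. At most 10.4% was left in control at 12 h, against 75.5%. Its second probe set was stabilized as well (1.92) but gave 0 h signals of 161 in control and 102 in CNOT3-depleted MEFs, so its direction at 0 h differed between probe sets. Its relative Rab39 gave 16.7, 37.6 and 34.9 against 25.5, 20.2 and 21.0, all low. Rab38 and Rab39b were the Rab genes both stabilized and more than 1.5-fold higher at 0 h, where 0.797% of all genes and 1.31% of those at or above the median were both.

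**Figure D3:**
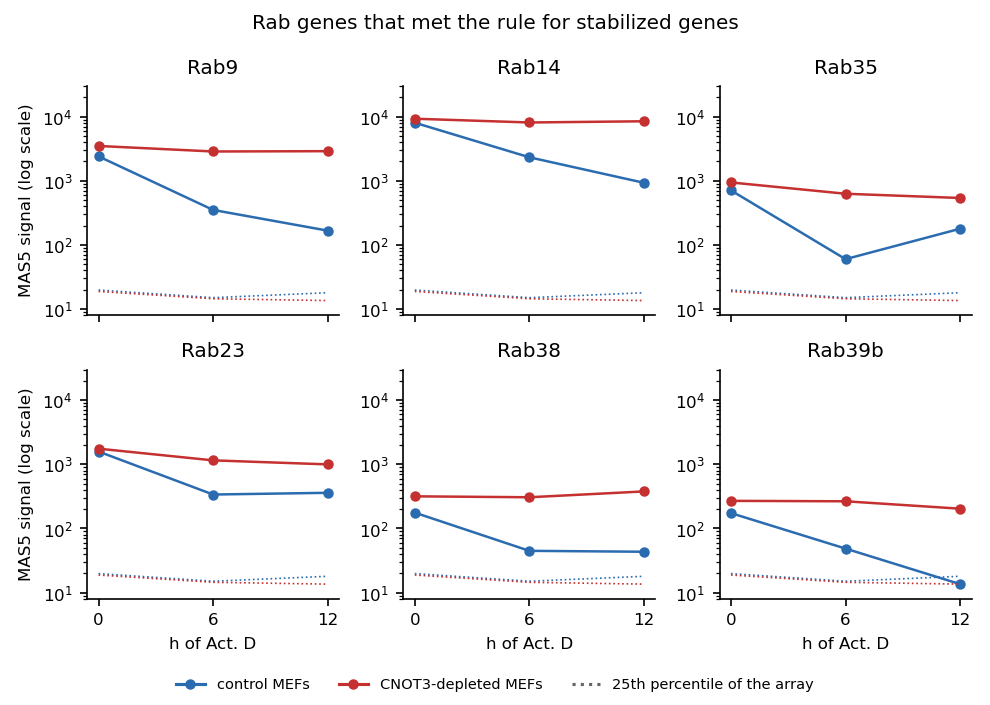
MAS5 signal (log scale) at 0, 6 and 12 h of Act. D for the 6 stabilized Rab genes, 1 array per point, with blue for control, red for CNOT3-depleted MEFs and the 25th percentile of each array dotted. Blue lines drop by 6 h in every panel, Rab35 rises again from 59.96 to 179 at 12 h, and Rab39b reaches the dotted line at 12 h.

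A further 6 Rab genes at or above the median had a stabilization above 1 without meeting the rule. Rab43, which acts at the Golgi, gave 392, 183 and 25.04 in control and 572, 463 and 523 in CNOT3-depleted MEFs. Its stabilization was 2.32 there, 0.66 and −0.50 at its other probe sets and 0.66 as the median over them. Rab29 gave 526, 268 and 99.3 against 822, 818 and 769. Rab8b, a GTPase of polarized secretion and ciliogenesis, gave 2952, 1413 and 615 against 2726, 2605 and 2381. In each of these the control loss was incomplete at 6 h and deep at 12 h, and the ratio of fractions at 6 h was 1.74 for Rab43, 1.96 for Rab29 and 1.997 for Rab8b, each under the limit of 2.

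Rab22a, an early endosomal relative of Rab5, gave 879, 469 and 192 against 1077, 898 and 933, and Rab32 gave 819, 648 and 321 against 1589, 1949.9 and 1851, with ratios at 6 h of 1.56 and 1.55. Rab33b, which recruits an autophagy complex, gave 1703, 229 and 135 in control and 1585, 701 and 604 in CNOT3-depleted MEFs. Its ratios of fractions were 3.29 and 4.79, and it failed the rule because CNOT3-depleted MEFs were down to 44.2% at 6 h. In all, 12 of 49 Rab genes (24.5%) exceeded 1, against 21.7% of genes at or above the median. With the condition set on 12 h alone 14 of 49 (28.6%) met the rule, against 22.4%, and on 6 h alone 8 of 49 (16.3%), against 13%.

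Sorted by compartment, the 14 ER and Golgi Rabs at or above the median ran from −1.12 for Rab36 to 2.54 for Rab39b, with a median stabilization of 0.30. Rab1a, which drives ER to Golgi transport, gave 15817, 17082 and 10359 in control and 17485, 19645 and 19627 in CNOT3-depleted MEFs. Rab2a, which acts at the same step, gave 8772, 9252 and 4521 against 8277, 9706 and 9609.8. Both kept their full signal at 6 h in control and were lower at 12 h, at 65.5% and 51.5%. In the signals as deposited Rab18 showed no such loss, with 6652, 8655 and 7895 against 7163, 8087 and 8250.1. Its stabilization was −0.12, and 0.38 when arrays were divided by ribosomal protein signals and 0.10 after quantile normalization.

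The 7 early endosomal Rabs had a median stabilization of −0.07. Rab5a, the organizer of early endosome fusion, was the most stabilized after Rab22a, with 4250.1, 2887 and 1673 in control and 4179.7, 4365 and 4210.4 in CNOT3-depleted MEFs. Its isoform Rab5c took the other course, with 1897, 3142 and 3785 against 2017, 2283 and 2512. Rab20, a phagosomal GTPase, had the lowest value of the family, but CNOT3-depleted MEFs were near background at 6 and 12 h, where at most 13.8% and 13.0% of a 0 h signal of 105 was left.

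The 7 recycling Rabs at or above the median had a median of 0.42 and included the stabilized Rab14 and Rab35. Rab11a, the main GTPase of recycling endosomes, gave 6913, 7649.7 and 4666 in control and 9427, 10738 and 12638 in CNOT3-depleted MEFs. At 12 h control stood at 67.5% and CNOT3-depleted MEFs at 134%. Its second probe set gave 2445, 3842 and 4997 against 1955, 2445 and 2669, so the Rab11a probe sets pointed in opposite directions, with 0.52 and −0.46.

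Among the 5 late endosomal Rabs at or above the median, Rab7, which governs fusion with lysosomes, read above its 0 h signal in both cultures after Act. D. It gave 6160.3, 8839 and 9156 against 7105, 7985 and 8496, a stabilization of −0.33 that became 0.17 when arrays were divided by ribosomal protein signals. The median of the 5 was 0.43, with Rab9 far above the rest. The 8 exocytic Rabs at or above the median had a median of −0.24, and Rab8b was the 1 gene of them with at most 50% left in control. All 3 Rabs listed under lysosome-related organelles were higher at 0 h and had at most 50% left in control at 12 h. Their stabilization was above 1, from 1.10 to 2.10, although that of Rab32 was 0.55 after quantile normalization. The lysosome-related list was drawn up with earlier results of these data known. Rab27a and Rab27b, listed under exocytosis, did not share all of these traits. Rab27b gave a 1.08-fold difference at 0 h, 56.6% left in control at 12 h and a stabilization of 0.19. Rab27a, at low signals, had a stabilization of −0.63. Among genes at or above the median, 12.4% were higher, 38% had at most 50% left in control and 21.7% exceeded 1. The 5 others, with Rab23, Rab28, Rab40b, Rab40c and Rab42, had a median of 0.64.

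Close relatives were set side by side, and unrelated pairs were not counted, so the count below has no background. Of 17 pairs with both genes measured, 14 had both at or above the median, and in 8 of these the log2 stabilization differed by more than 1. The pairs were Rab2a (0.66) and Rab2b (−0.92), Rab4a (0.42) and Rab4b (−0.62), Rab5a (0.99) and Rab5c (−0.61), and Rab22a (1.32) and Rab31 (−0.83), in which the relatives had opposite signs. In Rab40b (−0.16) and Rab40c (0.93) the sign of Rab40b turned when arrays were divided by ribosomal protein signals. Rab8a (0.48) and Rab8b (1.53), Rab33a (0.76) and Rab33b (1.99), and Rab32 (1.10) and Rab38 (2.10) differed in size only. Rab32 and Rab38 were the 1 pair of the 14 with a stabilized member. The pairs among Rab5a, Rab5b and Rab5c share members. Probe sets of the same gene could differ by more than 1 as well, as for Rab43 (2.32 and −0.50).

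**Figure D4:**
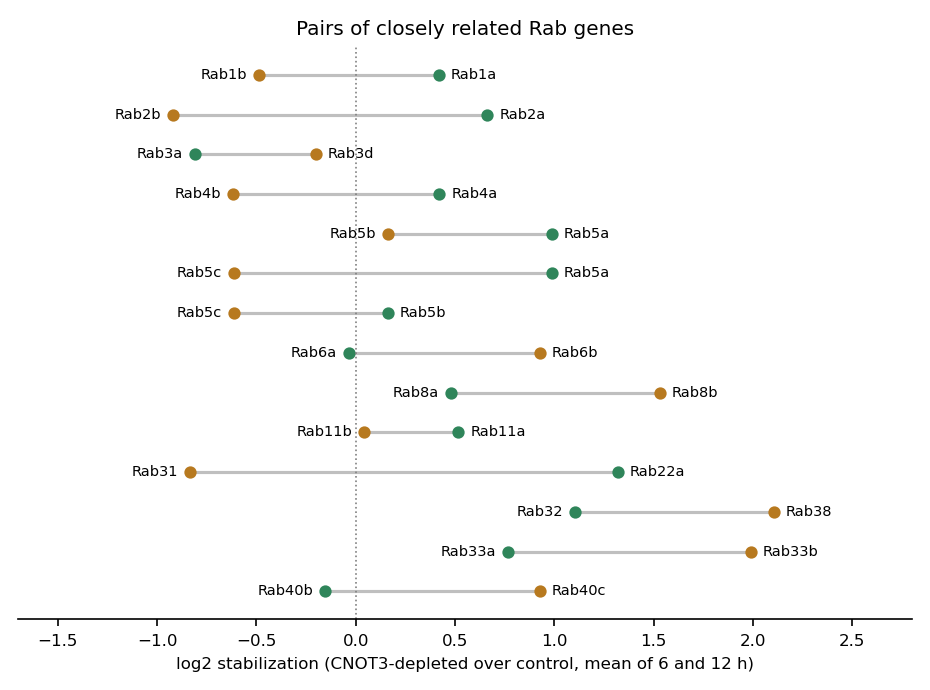
Log2 stabilization (CNOT3-depleted over control, mean of 6 and 12 h) of the 14 pairs of related Rab genes with both members at or above the median, 1 line per pair. Lines that cross the dotted 0 line, such as those of Rab2a and Rab2b or Rab22a and Rab31, join relatives with opposite signs.

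The family has 131 probe sets, with several for 38 genes, and the choice of probe set mattered for some members. Of 102 probe sets at or above the median, 14 (13.7%) met the rule for stabilized genes, against 8.89% of all probe sets at or above the median. They belonged to 9 genes, and for Rab10, Rab22a and Rab30 only a probe set with a lower mean log2 signal over the arrays met it. That of Rab30 was the brighter at 0 h, with a mean log2 signal of 8.22 against 7.40. Over the arrays its mean was 5.75 against 7.25. Rab30 gave 269.5, 5.29 and 2.63 in control and 330.2, 177 and 113 in CNOT3-depleted MEFs at that probe set, with the control near background at 6 and 12 h. Rab10, which delivers glucose transporters to the surface, gave 2008, 914 and 805 against 2561, 2476 and 2268 there, whereas its brightest probe set gave 4337, 5985 and 5866 against 4490.4, 5227 and 4956.

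**Figure D5:**
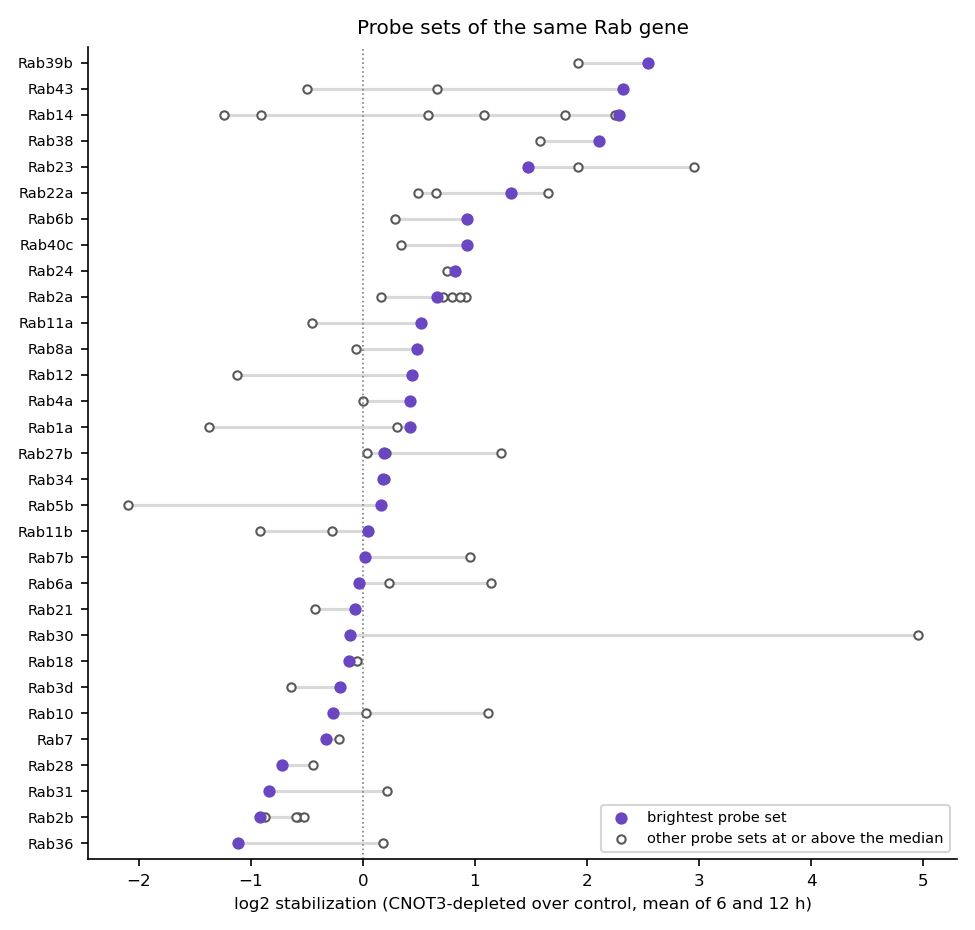
Log2 stabilization (CNOT3-depleted over control, mean of 6 and 12 h) of every probe set at or above the median for Rab genes that have several, with the brightest probe set filled and the others open. Rab34 and Rab18 show close values, whereas Rab14, Rab5b and Rab30 spread over more than 2 log2 units.

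The machinery around the Rab cycle was taken from lists of GEFs, GAPs, effectors and the prenylation and GDI genes. Most of these genes were at or above the median signal, where 10.6% of genes were stabilized with a median stabilization of 0.13 (over all genes 6.44% and 0.02). At 0 h, 19.5% of all genes were higher and 15.7% lower, and 12.4% and 6.77% of those at or above the median. Among 6 prenylation and GDI genes measured, Rabggta was stabilized, 0 passed 1.5-fold upward at 0 h and 1, Chml, passed it downward. Rabggta, the alpha subunit of the geranylgeranyl transferase that prenylates Rabs, gave 261, 161 and 116 in control and 243, 359 and 271 in CNOT3-depleted MEFs. Its beta subunit Rabggtb gave 2001, 1449 and 1381 against 1612, 1462 and 1368 (0.31). Chml, a Rab escort protein, gave 494, 519 and 495 against 296, 230.4 and 263. Rabac1, a Rab acceptor of the Golgi, had the smallest stabilization of the list at −0.49 and gave 4978, 7614 and 8361 against 6288, 6815 and 7525.

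Of 40 GEFs measured (39 at or above the median), 7 were stabilized (Rabif, Rab3il1, Rab3ip, Rin2, Dennd2d, Dennd4c and Ric1), 4 were higher and 2 lower at 0 h, and the median stabilization was 0.50. Of the lower, Dennd1c was near background on all 6 arrays. Dennd4c, an exchange factor of Rab10, gave 1082, 245 and 106 in control and 1119, 820.1 and 677 in CNOT3-depleted MEFs. Rab3il1 gave 121, 57.4 and 18.0 against 160.2, 189 and 187, and Dennd2d gave 66.1, a near-background 5.11 and 20.7 against 91.9, 98.4 and 106. In all 3 the control signals after Act. D lay under every CNOT3-depleted signal. Dennd5a, at the low end with −0.70, gave 4828, 7714 and 9517 against 5039, 5261 and 5733.

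Of 39 GAPs (33 at or above the median), 4 were stabilized (Rabgap1, Tbc1d2, Tbc1d10b and Tbc1d20), 7 were higher and 1 lower at 0 h, and the median stabilization was 0.53. Tbc1d10b, a GAP that acts on Rab35 among others, gave 1386, 269 and 138 in control and 1523, 1196 and 1115 in CNOT3-depleted MEFs. Tbc1d2, a GAP of Rab7, gave 266, 30.3 and 48.2 against 237, 237 and 116. Tbc1d14, which binds Rab11, gave 1756, 178 and 147 against 1527, 739.9 and 510.3, a stabilization of 2.13, and was outside the rule because CNOT3-depleted MEFs were at 48.5% at 6 h. Tbc1d9b stood at −0.67 with 836, 1171 and 1259.9 against 1423, 1268 and 1339.

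Of 49 effectors (38 at or above the median), 7 were stabilized (Rabep2, Rbsn, Rab11fip3, Rab11fip5, Rilpl1, Inpp5b and Golga5), 13 were higher and 3 lower at 0 h, and the median stabilization was 0.54. Rab11fip5, an effector of Rab11, gave 1504, 442 and 214 in control and 2366, 2353 and 2201 in CNOT3-depleted MEFs. Inpp5b, an inositol phosphatase that binds Rabs, gave 946, 397 and 103 against 1427, 1438 and 1368. Plekhm1, a late endosomal adaptor of Rab7, gave 344, 65.9 and a near-background 3.19 against 403, 177 and 172, outside the rule because CNOT3-depleted MEFs were at 43.8% at 6 h. Vps41, a subunit of the tethering complex of late endosomes, stood at −0.81 with 1591, 3429 and 3747 against 2633, 3206 and 3556.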

How the data were processed

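Total RNA from 6 cultures was hybridized by the authors to Affymetrix Mouse Genome arrays, and the deposited values are linear MAS5 intensity signals, 1 per probe set and array. For the MAS5 version and scaling target, the sources used here give nothing. Of 45037 probe sets, the platform annotation names 34945 with 1 gene and 932 with several, and only the former were used. Signals under 1 were set to 1. The probe set brightest on average (mean log2 signal) stood for its gene, and ratios, percentages left and log2 stabilization were computed in Python 3.11.15 with pandas 2.3.3 and numpy 2.4.6. The calling rules were tested on simulated data. No test across replicates was possible, and no genome was used, so no coordinates are given.

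The Rab genes and the lists (roles, prenylation and GDI, GEFs, GAPs, effectors, related pairs, fibroblast, leukocyte, epithelial, melanocyte, neural and endocrine, and endothelial markers) were chosen with earlier results of these data known. All 6 signals are given for Rab genes that were stabilized in either direction, past 1.5-fold at 0 h with both signals at or above the median, among the 5 highest mean log2 signals, or related to a stabilized gene, and for the 3 highest and 1 lowest of each list. The other genes shown in full were chosen after their values were seen. Alternatives covered scaling, low signals, a pseudocount, the choice of probe set and the thresholds.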

Additional observations from a re-analysis of the deposited data

Results flagged for a closer look

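For 9 Rab genes at or above the median, the cultures moved in opposite directions from 0 h at both 6 and 12 h. With 1 array per condition these differences were not tested, and they depended on the scaling. The share of all genes that did the same was not computed, so the count has no background. All 9 held for the signals as deposited, 6 with arrays divided by ribosomal protein signals (not Rab5a, Rab13 and Rab36), 1 after quantile normalization (Rab31) and 1 with arrays divided by their median (Rab5a). In control MEFs the signals of Rab13, Rab15, Rab31 and Rab36 were above 0 h at both times and in CNOT3-depleted MEFs below it, with log2 stabilizations of −0.54, −0.64, −0.83 and −1.12. Rab31, an early endosomal relative of Rab22a, gave 2031, 3043 and 3935 in control and 2398, 2236 and 2351 in CNOT3-depleted MEFs. Its second probe set ran differently, with 108, 93.5 and 185 against 102, 161 and 129, a stabilization of 0.22. That of Rab36 did not keep the pattern either, with 104, 97.7 and 143 against 93.0, 114 and 124. Rab13, a GTPase of tight junction transport, gave 573, 787 and 863 against 764, 764 and 749. The CNOT3-depleted signals of Rab13 and Rab15 were within a few percent of 0 h, at 98.0% and 99.1% at 12 h.

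The signals of Rab4a, Rab5a, Rab6b, Rab8a and Rab32 were below 0 h at both times in control MEFs and above it in CNOT3-depleted MEFs, with log2 stabilizations of 0.42, 0.99, 0.93, 0.48 and 1.10. Rab8a, which carries vesicles to the plasma membrane and cilium, gave 1411, 1352 and 972 in control and 1739, 1988 and 1951 in CNOT3-depleted MEFs. Rab6b, a Golgi GTPase best known from neurons, gave 187, 181 and 74.4 against 196, 210.2 and 256.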

How the results depend on the processing

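The main limit is 1 array per condition. No paired analysis was possible because each condition had 1 array and the labels carry no replicate numbers. Rab9, Rab38 and Rab39b stayed stabilized in all 12 alternatives, Rab14 in 11 and Rab23 and Rab35 in 10. The 13 Rab genes higher at 0 h became 8 with a pseudocount of 32 (10.6% of all genes) and 2 at a fold threshold of 2 (10.4%). The 5 lower became 3 after quantile normalization (15% of all genes), division by the array median (13.8%) or by ribosomal protein signals (13.7%). They became 2 with the pseudocount (7.21%) or the median over probe sets (16.3%). With both 0 h signals at or above the median (6.21% of such genes) or at a fold threshold of 2 (8.79% of all genes), 1 was lower. The 6 stabilized became 13 with ribosomal protein signals (11.9% of all genes), 13 with a ratio of 1.5 (11.4%), 14 at 12 h only (13.6%), and 4 after quantile normalization (4.73%) or with a ratio of 3 (2.75%). The 0 genes in the exchanged direction became 1 after quantile normalization, at 12 h only or with no limit on the 6 h ratio. They became 5 with a ratio of 1.5. Shares of all genes were not computed for these exchanged counts. In the same order, the median log2 fold of 0.23 became 0.25 (quantile), 0.32 (array median), 0.32 (ribosomal), 0.21 (pseudocount) and 0.20 (median over probe sets). The median stabilization of 0.18 became 0.14, 0.23, 0.68, 0.17 and 0.11, and 0.018 at 6 h only. Rab39b had a log2 fold at 0 h of 0.63, and of −0.012 with the median over probe sets. Stabilization changed sign for 9 of 49 Rab genes under ribosomal scaling (Rab10, Rab18, Rab1b, Rab21, Rab30, Rab3d, Rab40b, Rab6a, Rab7) and for 7 after quantile normalization. The causes were not tested, beyond what each setting changes by construction. Genes near background limit what low signals can show.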

Other observations

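At a few dim probe sets the larger loss was in CNOT3-depleted MEFs. There were 3 probe sets, of Rab14, Rab1a and Rab5b, that met the full rule for stabilized genes with the cultures exchanged. This rule includes the limits on the 0 h signal and on the control signal at 6 h. Some other probe sets met only its ratio of 2, such as that of Rab20, whose control was at 30.2% at 6 h. At the brightest probe sets, 0.479% of genes at or above the median met the full rule. A share over all probe sets was not computed. The Rab14 probe set gave 269, 137 and 108 in control and 155, 33.6 and 26.4 in CNOT3-depleted MEFs. That of Rab1a gave 92.9, 87.0 and 132 against 112, 47.1 and 52.5, and that of Rab5b, an early endosomal isoform, gave 81.0, 72.5 and 79.4 against 119, 29.7 and 22.6. At the brightest probe sets of Rab14 and Rab1a the fraction left was higher in CNOT3-depleted MEFs at both times, and at that of Rab5b it was higher at 6 h and nearly equal at 12 h.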
